A study of Mus musculus with 15 samples.

Results

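Serum carries hormones, cytokines and metabolites from the animal it was drawn from, and hepatocytes read many of them through surface and nuclear receptors. The experiment described here exposed the same female hepatocytes to serum from conventionally raised males (m_ConvR) or from conventionally raised females (f_ConvR) and asked how the responses differed. It is 1 of the contrasts in a series of 15 labelled mouse hepatocyte samples, of which 13 libraries were usable by name. The comparison rests on 5 of these libraries, namely m_ConvR serum replicates 1, 2 and 3 and f_ConvR serum replicates 2 and 3. Replicate 1 of f_ConvR serum was not used, because 2 columns of the count table carry that name.

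The cells were cryopreserved hepatocytes from female CD-1 donor mice, an outbred strain, plated at 200000 cells per well on collagen I in a medium with foetal bovine serum. After 6 h the medium was changed to a defined one with insulin, transferrin, selenous acid, albumin, linoleic acid and 0.1 µM dexamethasone, a synthetic glucocorticoid, and a Geltrex matrix was laid over the cells. On the next day mouse serum was added to 25% for 24 h, followed by 2 h with vehicle (PBS). All groups compared here received that vehicle in place of growth hormone. Cells of the same kind that received serum of germ-free females, animals raised without microbes, are quoted as a second reference (replicates 2 and 3, same vehicle). The statistical fit that set the spread also held male hepatocytes in m_ConvR serum, without growth hormone. It also held female hepatocytes in germ-free serum with 8 ng/ml growth hormone for those 2 h. Neither genotype nor age is given in the labels. They also do not say whether replicates were separate cultures, donors or serum pools, so p-values measure only the spread between these samples, which may be technical.

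In the liver, secretion of plasma proteins rises in the acute phase response. There interleukin 6 acts through the factor STAT3 and works together with C/EBP factors. Hepcidin, the hormone that closes the iron exporter ferroportin, is controlled by bone morphogenetic proteins (BMPs) through SMAD factors and also by interleukin 6. Sex differences of the mouse liver depend largely on the pattern of growth hormone secretion, which is pulsatile in males and more continuous in females.

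In male serum 687 genes were higher and 845 lower than in female serum, 1532 of 17405 tested. Levels are given as CPM, the count of a gene relative to the TMM-scaled total of its library, not corrected for gene length. A gene is called here when edgeR's quasi-likelihood test gave an adjusted p below 0.05, and "rose" and "fell" mean higher and lower in male serum. Calls made up 8.8% of the genes tested, 3.95% as rises and 4.85% as falls. Over all genes tested the median log2 change was 0.0015. The groups did not overlap in 34.9% of genes, so a lack of overlap between 3 and 2 libraries is common in these data. Most calls were small, with a median size of 0.52 on the log2 scale among rises and 0.47 among falls, and 160 rises and 88 falls exceeded 2-fold. Protein-coding genes made up 580 of the rises and 816 of the falls. Without f_ConvR replicate 2 the calls numbered 663 (359 rises and 304 falls, so that rises were then the more numerous), without f_ConvR replicate 3 they numbered 905 (335 and 570) and without m_ConvR replicate 1 they numbered 957.

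**Figure D1:**
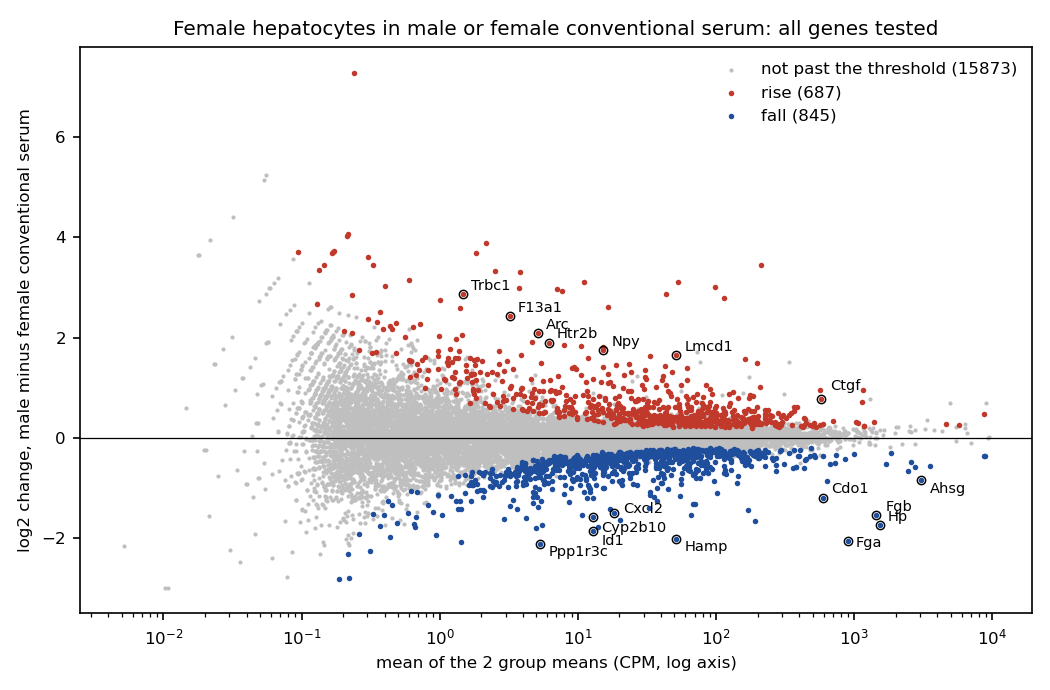
Log2 change between male and female conventional serum against the mean of the group means in CPM (log axis), 1 point per gene, for all 17405 genes tested. Red points are the 687 rises, blue points the 845 falls, and circles mark labelled genes; fibrinogen chains and Hp lie far below 0 at a high level, and the largest changes without a call lie at low counts.

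The female serum libraries were deeper, at 42903075 and 47798248 counts, than those with male serum, at 34886134 to 39381453. Xist and Malat1, both nuclear RNAs, were at 488 and 11117 CPM in f_ConvR replicate 2 and at 325 and 8079 CPM in replicate 3, against 277 to 397 and 8401 to 11342 CPM in male serum. Predicted models that resemble satellite repeats summed to 5.17 and 146 CPM in the female serum libraries and to 511 to 792 CPM in those with male serum. In the other 8 libraries they summed to 351 to 1626 CPM. The part of depth, nuclear RNA and satellite reads in the results below was not tested. Exons of Fgg, Ahsg, Cp, Cebpd, Pim1, Cxcl11, Junb, Ctgf, Csad, Mt2, Cyp2a4, Elovl3, Mex3a, F13a1, Tef, Hspa1a, Ddit3, Bcl6, Apoa5, Acnat2 and Slc30a1 overlap other annotated genes or models. Whether the counting used strand is not given in the sources used here, so reads of such partners may be mixed.

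All 20 hepatocyte markers were detected in every one of the 5 libraries, with summed levels of 23940 to 26090 CPM in male and 26970 and 30590 CPM in female serum. The markers of Kupffer cells, the macrophages of the liver, summed to 86.3 to 103.7 CPM in male and 109.6 and 119.1 CPM in female serum, and Cd68 made up most of that level. Sinusoidal endothelial markers summed to 52.2 to 56 and to 49.8 and 62.1 CPM, and stellate cell markers to 23 to 32.7 and to 30 and 38.6 CPM. Bile duct markers summed to 38.7 to 45.6 and to 35.3 and 48.6 CPM. Of 9 tested bile duct genes 2 fell, Elf3 (-1.19) and Spp1 (-0.70), and 1, Sox9 (0.79), rose. Without m_ConvR replicate 1 the calls of Spp1 and Sox9 were lost. The exons of Elf3 and Spp1 overlap predicted models. B cell and neutrophil markers stayed below 1 CPM in sum in each library, and Camp and Retnlg of neutrophils and Nkg7 of natural killer cells had no count. Of the macrophage list only Cd68 was called (-0.38, 1 of 12 tested), and it lost its call without any library of the 2 groups except m_ConvR replicate 1. In the list 10 of the 12 members lay above 0 and the median was 0.24, the other direction than Cd68 and the sum. Of the endothelial and stellate lists 0 of 13 genes each were called. At an unadjusted p under 0.05 the whole table held 4221 genes. In bulk RNA, fewer cells of a type and less RNA per cell cannot be told apart.

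Secreted acute phase proteins were lower in male serum. Of 27 members 15 fell and 1, Serpina1a, rose, and the median was -0.40. The rise was lost without any library except m_ConvR replicate 3, and Serpina1a shares reads with close copies. The list was compiled with earlier results of these data known, as were all lists below. The 3 chains of fibrinogen, the clotting protein, are encoded side by side on chromosome 3 and all were lower in male serum. Fga, the alpha chain (mm10 chromosome 3, 83026076 to 83033627, plus strand), stood at 291, 424 and 331 CPM in male serum and at 1490.5 and 1404 CPM in female serum. The lowest library in female serum was more than 3 times the highest in male serum. This is a log2 change of -2.05 ± 0.199 (SE, adjusted p = 1.49e-05), or 4.15-fold lower.

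Fgb, the beta chain (chromosome 3, 83040141 to 83049863, minus strand), had 620.2, 799 and 776 CPM in male and 2099.7 and 2151 CPM in female serum (-1.54 ± 0.162, adjusted p = 3.17e-05). Fgg, the gamma chain, had 83.5, 100.4 and 93.3 against 249 and 249.9 CPM (-1.43 ± 0.152, adjusted p = 3.53e-05). In each chain the 3 male serum libraries lay below both female serum libraries by a margin wider than the spread within either group. In germ-free female serum the chains lay in between, with Fga at 532 and 537, Fgb at 1124 and 1176 and Fgg at 114 and 128 CPM. Against that serum none of the 3 passed the test (adjusted p of 0.215, 0.089 and 0.358).

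Stretches of 250 bases upstream of the RefSeq start sites (GRCm38.p6) of the fibrinogen genes are shown because the chains fell together. The stretches are from chr3:83025903-83026152 (plus strand) for Fga, chr3:83049864-83050113 (minus strand) for Fgb and chr3:83007474-83007723 (plus strand) for Fgg, 5′ to 3′ in the direction of transcription. Capitals mark matches on either strand to TTCNNNGAA, the core that STAT factors bind, and to TTGCNNAA, a core of C/EBP sites.
Fga: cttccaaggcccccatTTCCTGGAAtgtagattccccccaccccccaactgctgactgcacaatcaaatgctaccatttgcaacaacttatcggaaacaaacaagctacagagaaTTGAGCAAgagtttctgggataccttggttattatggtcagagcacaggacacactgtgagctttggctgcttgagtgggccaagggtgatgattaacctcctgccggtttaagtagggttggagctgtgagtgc
Fgb: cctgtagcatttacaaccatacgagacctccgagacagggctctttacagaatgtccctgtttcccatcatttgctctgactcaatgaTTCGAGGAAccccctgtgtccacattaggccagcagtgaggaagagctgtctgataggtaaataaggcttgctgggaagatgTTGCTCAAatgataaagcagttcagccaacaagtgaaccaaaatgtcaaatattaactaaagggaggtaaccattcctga
Fgg: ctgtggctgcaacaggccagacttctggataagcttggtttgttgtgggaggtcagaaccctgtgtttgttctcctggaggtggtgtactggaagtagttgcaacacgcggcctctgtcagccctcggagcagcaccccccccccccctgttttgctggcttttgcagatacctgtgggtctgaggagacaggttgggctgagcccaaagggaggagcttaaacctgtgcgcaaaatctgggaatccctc
Fga had the STAT letters starting 234 bases and the C/EBP letters 135 bases before the start, and Fgb had them 162 and 80 bases before it. Fgg had no match in this window. The RefSeq start of Fga lies 77 bases downstream of the GENCODE start given above, while those of Fgb and Fgg match theirs. The STAT letters occurred in 7.02% of 32851 promoters of this length and the C/EBP letters in 9.56%. The next shares count genes instead, as those with a match in any of their promoter entries. They were 7.64% and 14.3% of 589 falls, 6.37% and 8.96% of 424 rises and 7.34% and 9.31% of 10073 tested genes. Genes without a matched promoter entry are not counted. A match is a description of the letters, not of binding.

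Hp, haptoglobin, which captures free haemoglobin, had 638, 779.5 and 695 CPM in male and 2660.1 and 2042 CPM in female serum (-1.74 ± 0.193, adjusted p = 5.6e-05). Crp, C-reactive protein, had 5.46, 7.45 and 6.05 against 24.9 and 18.6 CPM (-1.79 ± 0.157). Hpx, hemopexin, which binds free haem, had 2139.8, 2278 and 2170.1 against 3328 and 3246 CPM (-0.58 ± 0.0701). No library of male serum reached the level of either female serum library in these 3 genes, but this held for 839 of the 845 falls. Saa4, a constitutive serum amyloid of high-density lipoprotein, had 27.1, 25.9 and 21.5 against 51.1 and 48.7 CPM (-1.01 ± 0.0985), and it was at 24.5 and 21.2 CPM in germ-free serum, at the level of male serum. Cp, the copper-carrying ferroxidase ceruloplasmin, fell by 0.66 on the log2 scale, with its call lost without f_ConvR replicate 2 (adjusted p = 0.099). Lbp, Saa3, Apcs, Serpina10, Lcn2, Orm3 and Itih3 also fell, between 0.36 and 0.93 on the log2 scale. Without f_ConvR replicate 2, 8 members fell. The calls of Fga, Fgb, Fgg, Hp, Crp, Saa4 and Hpx held in all 13 alternative fits.

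Of 10 negative acute phase genes, whose products drop in plasma during the acute phase, 3 fell and 0 rose (1 fell without f_ConvR replicate 2 and 1 without m_ConvR replicate 1). Ahsg, fetuin A, an inhibitor of calcification, had 2227, 2357 and 2003 CPM in male and 3794 and 4081 CPM in female serum (-0.84 ± 0.0832, adjusted p = 1.83e-05). Trf, transferrin, changed by -0.36 and Gc, the vitamin D carrier, by -0.30, both calls that were lost in several alternative fits, and Trf overlaps a predicted antisense model. Albumin (Alb) at 0.20 and transthyretin (Ttr) at 0.25 did not pass the test (adjusted p = 0.0963 and 0.341), but both rises were called without the low-count filter (adjusted p = 0.0377 and 0.0332).

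Among mediators and readouts of interleukin 6 signalling 5 of 17 fell and 1 rose (2 fell and 0 rose without f_ConvR replicate 2). Steap4, a metalloreductase induced in inflammation, had 67.6, 108 and 99.8 CPM in male and 356 and 222 CPM in female serum (-1.66 ± 0.218, adjusted p = 0.000219). Pim1, a kinase gene that STAT factors induce, went the other way, with 149, 94.7 and 118 against 54.5 and 67.7 CPM (0.98 ± 0.19), and lost its call without f_ConvR replicate 2 (adjusted p = 0.0628). Socs3, the feedback inhibitor of this pathway, had 6.54, 6.01 and 7.21 against 6.9 and 8.24 CPM and did not pass (-0.20 ± 0.112, adjusted p = 0.294). Cebpd, a C/EBP factor of the acute phase, fell by 0.87 and Il1rn, the interleukin 1 receptor antagonist, by 0.86. Cebpd lost its call without f_ConvR replicate 2 (adjusted p = 0.127) and Il1rn without replicate 3 (0.0939).

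**Figure D2:**
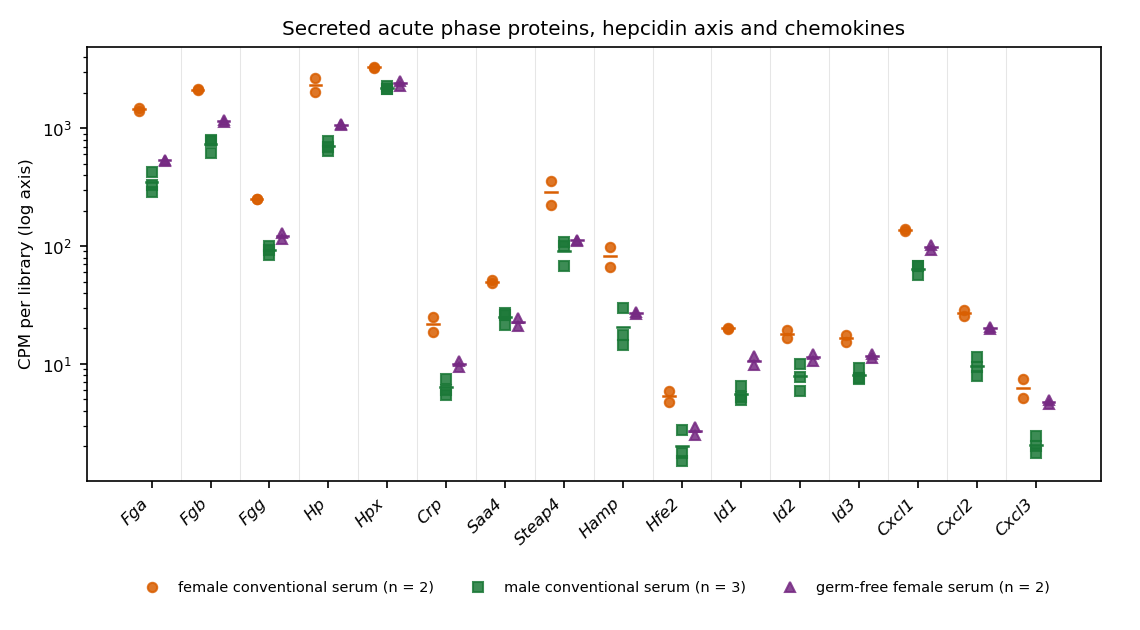
CPM per library (log axis) of 16 genes that fell, in female conventional serum (circles, n = 2), male conventional serum (squares, n = 3) and germ-free female serum (triangles, n = 2); short lines are group means. The male serum points lie below the female conventional points in all 16 genes, and the groups were separated in 839 of all 845 falls. For Fga the male serum points stand at 291, 424 and 331 against 1490.5 and 1404 CPM.

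Hepcidin and the SMAD targets Id1, Id2 and Id3 were lower in male serum, and so was a BMP co-receptor, while Smad7, another SMAD target, was higher. Hamp, hepcidin (chromosome 7, 30942368 to 30944032, minus strand), had 17.5, 29.8 and 14.3 CPM in male and 99 and 65.9 CPM in female serum, with 26.3 and 27.6 CPM in germ-free serum. The female serum libraries differed from each other, and both still exceeded every male serum library (-2.01 ± 0.302, adjusted p = 0.000643, 4.03-fold lower). Its promoter is shown because it holds letters of both pathways that control the gene, from chr7:30944030-30944279 (minus strand, GRCm38.p6), with the core GGCGCC of a BMP-responsive element and the STAT core in capitals.
Hamp: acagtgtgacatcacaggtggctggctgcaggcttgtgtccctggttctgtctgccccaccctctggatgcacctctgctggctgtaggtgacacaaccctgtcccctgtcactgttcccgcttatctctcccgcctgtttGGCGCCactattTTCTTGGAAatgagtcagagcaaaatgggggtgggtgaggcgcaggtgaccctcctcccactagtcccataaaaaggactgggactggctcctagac
The BMP letters start 109 bases and the STAT letters 97 bases before the RefSeq start. GGCGCC occurred in 9.59% of all promoters of this length. Counted by gene, as for the fibrinogen promoters, the shares were 18.7% of tested genes, 12.7% of falls and 21.5% of rises.

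Id1, Id2 and Id3 encode inhibitors of DNA binding and are classic direct targets of SMAD factors. Id1 had 5.25, 6.56 and 4.91 CPM in male and 19.9 and 20.3 CPM in female serum (-1.85 ± 0.198, adjusted p = 3.73e-05). Id2 had 5.92, 9.93 and 7.77 against 16.6 and 19.4 CPM (-1.20 ± 0.204) and Id3 7.47, 9.26 and 7.67 against 15.3 and 17.7 CPM (-1.02 ± 0.151). All 3 were separated without overlap, as were 839 of the 845 falls. Germ-free serum held Id1 at 9.73 and 11.6 CPM, between the other sera. Hemojuvelin, a BMP co-receptor for hepcidin control that the table lists as Hfe2, had 1.74, 2.75 and 1.49 against 5.84 and 4.78 CPM (-1.42 ± 0.245, adjusted p = 0.00196).

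Other members of the pathway rose. Smad7, an inhibitory SMAD, had 65.3, 60.2 and 56.5 CPM in male and 33.8 and 34.1 CPM in female serum (0.84 ± 0.091, adjusted p = 4.34e-05). Acvr1, a type I BMP receptor, had 54.6, 59 and 61.4 against 31.9 and 23.9 CPM (1.06 ± 0.11, adjusted p = 3.15e-05). Smad6, the other inhibitory SMAD, did not pass (-0.31 ± 0.234, adjusted p = 0.449). In all 4 of 19 tested members of the BMP list fell and 2 rose, and the 4 falls were called without each library in turn. In the iron list 6 of 17 fell and 1 rose (3 fell without f_ConvR replicate 2). Hmox1, haem oxygenase 1, which breaks down haem, was the rise, with 293, 255 and 242 against 202 and 185 CPM (0.45 ± 0.0873), and lost its call without f_ConvR replicate 3 (adjusted p = 0.0564).

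Neutrophil-attracting chemokines were lower in male serum than in either female serum. Cxcl2 had 7.93, 11.5 and 9.36 CPM in male, 28.7 and 25.6 CPM in conventional female and 20.6 and 19.7 CPM in germ-free female serum. The male serum libraries were the lowest of the 7. The change was -1.50 ± 0.115 against conventional (adjusted p = 1.36e-06) and -1.07 ± 0.117 against germ-free serum (adjusted p = 0.000837). Cxcl1 had 56.5, 67.7 and 67.9 CPM in male, 140.4 and 135 in conventional female and 93.5 and 103 in germ-free serum (-1.10 ± 0.086 and -0.62 ± 0.0867, adjusted p = 1.41e-06 and 0.00604). Cxcl3, which is not in the list of NF-kB targets counted below, was scarcer, at 2.01, 1.75 and 2.45, 5.14 and 7.44 and 4.93 and 4.54 CPM (-1.59 ± 0.185 and -1.19 ± 0.191). Its difference from germ-free serum (adjusted p = 0.0137) was not called without m_ConvR replicate 2 (adjusted p = 0.0829) or either germ-free library.

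Chemokines that attract T cells through the receptor CXCR3 were higher than in conventional female serum. Cxcl11 had 28.1, 28.9 and 34.2 CPM in male and 15.6 and 9.76 CPM in female serum (1.26 ± 0.181, adjusted p = 0.000429). Cxcl10 had 9.96, 4.23 and 8.98 against 3.47 and 3.62 CPM (1.13 ± 0.268, adjusted p = 0.0154) and 18.2 and 19.5 CPM in germ-free serum. It thus lay above conventional female and below germ-free serum (-1.28 ± 0.23, adjusted p = 0.029). The first of these calls was lost without m_ConvR replicate 1 or either female serum library (adjusted p of 0.0645 to 0.099), the second without either germ-free library (0.231 and 0.204), and the exons of Cxcl10 overlap Art3. Among the 33 tested NF-kB targets and chemokines of the list 11 fell and 2 rose, with a median of -0.29, and 5 fell without f_ConvR replicate 2. Beside Cxcl1 and Cxcl2 the falls were Tnfaip2, Tnfaip3, Nfkbia, Nfkbie, Irf1, Sod2, Cd14, Ccl2 and Ccl7, between 0.26 and 0.73 on the log2 scale.

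In the list of genes induced by interferons 16 of 43 members fell, with 0 rises and a median of -0.22. The list does not hold Cxcl10 and Cxcl11, which rose. Iigp1, a GTPase that acts against parasites in vacuoles, had 17.3, 25 and 23.5 CPM in male and 62.6 and 42.7 CPM in female serum (-1.26 ± 0.163, adjusted p = 0.000178). Rsad2, the antiviral enzyme viperin, had 62.5, 43.9 and 46.5 against 85.6 and 84 CPM (-0.73 ± 0.167), and 94.8 and 96.2 CPM in germ-free serum. Ifit3, an antiviral protein, had 2.81, 2.73 and 2.78 against 6.46 and 4.15 CPM (-0.94 ± 0.233). The 2 female serum libraries differed in Iigp1 and Ifit3, with replicate 2 the higher. Without it 3 members fell, and Rsad2 and Ifit3 lost their calls (adjusted p = 0.0626 and 0.264), while 10 fell without m_ConvR replicate 1.

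Complement and coagulation factors are also products of the hepatocyte. Of 22 complement genes 5 fell, among them Cfb and C2, the convertase proteases (-0.60 and -0.59), and Mbl2, a lectin that recognises microbial sugars (-0.52). Cfb and C2 share exonic sequence with 1 predicted model, so their reads are not independent. Without f_ConvR replicate 2, 0 complement genes fell, 2 fell without m_ConvR replicate 1 and 3 without m_ConvR replicate 2. Of 26 listed coagulation and fibrinolysis genes other than the fibrinogen chains 4 fell. F13a1, a subunit of coagulation factor XIII described below, is not in that list and rose. Plat, tissue plasminogen activator, had 31.8, 50.1 and 35.3 CPM in male and 119 and 75 CPM in female serum (-1.31 ± 0.19, adjusted p = 0.000463). Serpinf2, the plasmin inhibitor, changed by -0.63, Cpb2, which protects clots from lysis, by -0.32 and Kng1, kininogen, by -0.29. Without f_ConvR replicate 2 only Plat of these 4 kept its call, and 2 did without m_ConvR replicate 1.

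Genes of glycogen storage and glucose production fell in 10 of 24 members, with 1 rise and a median of -0.37. Ppp1r3c, which targets protein phosphatase 1 to glycogen, fell the most among the named genes with all libraries in the fit, with 2.06, 2.28 and 1.67 CPM in male and 8.57 and 8.75 CPM in female serum (-2.11 ± 0.16, adjusted p = 1.36e-06). In germ-free serum it stood at 2.67 and 2.26 CPM, close to male serum. Slc2a2, the glucose transporter GLUT2, had 2.71, 2.98 and 3.11 against 5.74 and 4.96 CPM (-0.87 ± 0.156). Gys2, liver glycogen synthase, had 2.01, 2.22 and 2.3 against 3.72 and 3.73 CPM (-0.77 ± 0.194). Gys2 lost its call in several alternative fits, and 4 members fell without f_ConvR replicate 2 and 6 without m_ConvR replicate 1.

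Targets of the glucocorticoid receptor fell in 7 of 15 members and rose in 1, although the medium of both groups held the same dexamethasone. Tat, tyrosine aminotransferase, had 5.54, 6.45 and 3.16 CPM in male and 9.98 and 11.8 CPM in female serum (-1.11 ± 0.19, adjusted p = 0.00182). Errfi1, an inhibitor of the EGF receptor, had 401, 506 and 458 against 815 and 834 CPM (-0.86 ± 0.0961). Sgk1, a kinase of ion transport, rose, with 186, 241 and 230.1 against 141 and 111 CPM (0.80 ± 0.117). The metallothioneins Mt1 and Mt2, which bind zinc and belong to this list too, fell by 0.50 and 0.60 on the log2 scale. Cebpd, Mt1 and Mt2 are also known to be induced in inflammation.

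Enzymes of amino acid breakdown fell in 8 of 36 members, with 0 rises. Cdo1, cysteine dioxygenase, the entry to taurine synthesis, had 369.9, 378 and 338 CPM in male and 800.3 and 856 CPM in female serum (-1.19 ± 0.0901, adjusted p = 1.36e-06). Csad, the next enzyme of that route, had 3.88, 3.17 and 4.00 against 5.93 and 5.36 CPM (-0.61 ± 0.138), with a call lost without f_ConvR replicate 2 (adjusted p = 0.102). Cps1, which feeds ammonia into the urea cycle, had 11.7, 12.8 and 12.4 against 17.8 and 18 CPM (-0.54 ± 0.0904). Of 15 periportal genes 5 fell, led by Hsd17b13, a lipid droplet enzyme (8.89, 8.9 and 10.4 against 25.4 and 24.8 CPM, -1.42 ± 0.119), and 3 fell without f_ConvR replicate 2 or m_ConvR replicate 1. Of 14 pericentral genes 0 were called.

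Among 30 drug-metabolising genes that CAR or PXR control, 9 fell and 0 rose (5 falls without f_ConvR replicate 2). Cyp2b10, the classic CAR target (chromosome 7, 25897620 to 25926624, plus strand), had 7.12, 6.45 and 5.62 CPM in male, 19.9 and 18.6 CPM in conventional female and 6.73 and 7.05 CPM in germ-free serum (-1.59 ± 0.117 against conventional female serum, adjusted p = 1.36e-06). The male and germ-free libraries overlapped in this gene. Ugt2b35 and Ugt2b34, glucuronosyltransferases, had 4.63, 4.56 and 5.72 against 13.7 and 10.6 CPM (-1.29 ± 0.145) and 25.7, 27 and 31.3 against 56.5 and 48.8 CPM (-0.91 ± 0.106). Their close relatives may share reads. Nr1i2, the gene of PXR itself, fell by 0.72 on the log2 scale, with its call lost without f_ConvR replicate 2 (adjusted p = 0.11).

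In bile acid metabolism 5 of 26 members fell and 1 rose, with a median of -0.34. Abcb4, which exports phospholipid into bile, had 9.72, 9.96 and 11.2 CPM in male and 22.4 and 19.1 CPM in female serum (-1.01 ± 0.118, adjusted p = 7.88e-05). Baat, which conjugates bile acids to taurine, had 2.54, 3.81 and 4.02 against 7.79 and 6.32 CPM (-1.03 ± 0.217), with its call lost without f_ConvR replicate 2 (adjusted p = 0.0839). Acox2, an enzyme of bile acid side-chain oxidation, had 44.9, 63.9 and 46.7 against 102 and 79.9 CPM (-0.81 ± 0.136). Cyp8b1, which directs synthesis to cholic acid, rose (6.83, 10.5 and 7.87 against 5.97 and 5.47 CPM, 0.55 ± 0.162), a call lost without each library except m_ConvR replicate 1. Cyp7a1, the rate-limiting enzyme, was scarce at 0.375, 0.195 and 0.405 against 0.392 and 0.603 CPM and did not pass. The list held 3 falls without f_ConvR replicate 2 and 8 without m_ConvR replicate 2.

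Targets of PPAR-alpha, the receptor that switches on fatty acid oxidation, fell in 10 of 41 members and rose in 1, but the count depended on f_ConvR replicate 2. Ehhadh, a peroxisomal enzyme, had 37.4, 52.4 and 31.3 CPM in male serum and 140.4 and 59.7 CPM in female serum replicates 2 and 3 (-1.31 ± 0.237). Replicate 2 was more than 2-fold above replicate 3. Without replicate 2, Ehhadh changed by -0.57 (adjusted p = 0.0696), 1 member fell and 4 rose. The falls numbered 6 without m_ConvR replicate 1 and 5 without m_ConvR replicate 3. Among lipogenic genes 4 of 21 fell and 2 rose (0 falls and 1 rise without f_ConvR replicate 2, and 2 falls without m_ConvR replicate 1). Fasn, fatty acid synthase, had 141, 122 and 139.7 against 100.0 and 92.7 CPM (0.48 ± 0.0875), with a call in all 13 alternative fits. In sterol synthesis 3 of 26 rose and 1 fell, led by Insig1, the sterol-regulated brake on SREBP processing (108, 118 and 134 against 61.9 and 69.1 CPM, 0.88 ± 0.0957, adjusted p = 4.57e-05). Insig1 alone rose without f_ConvR replicate 2.

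**Figure D3:**
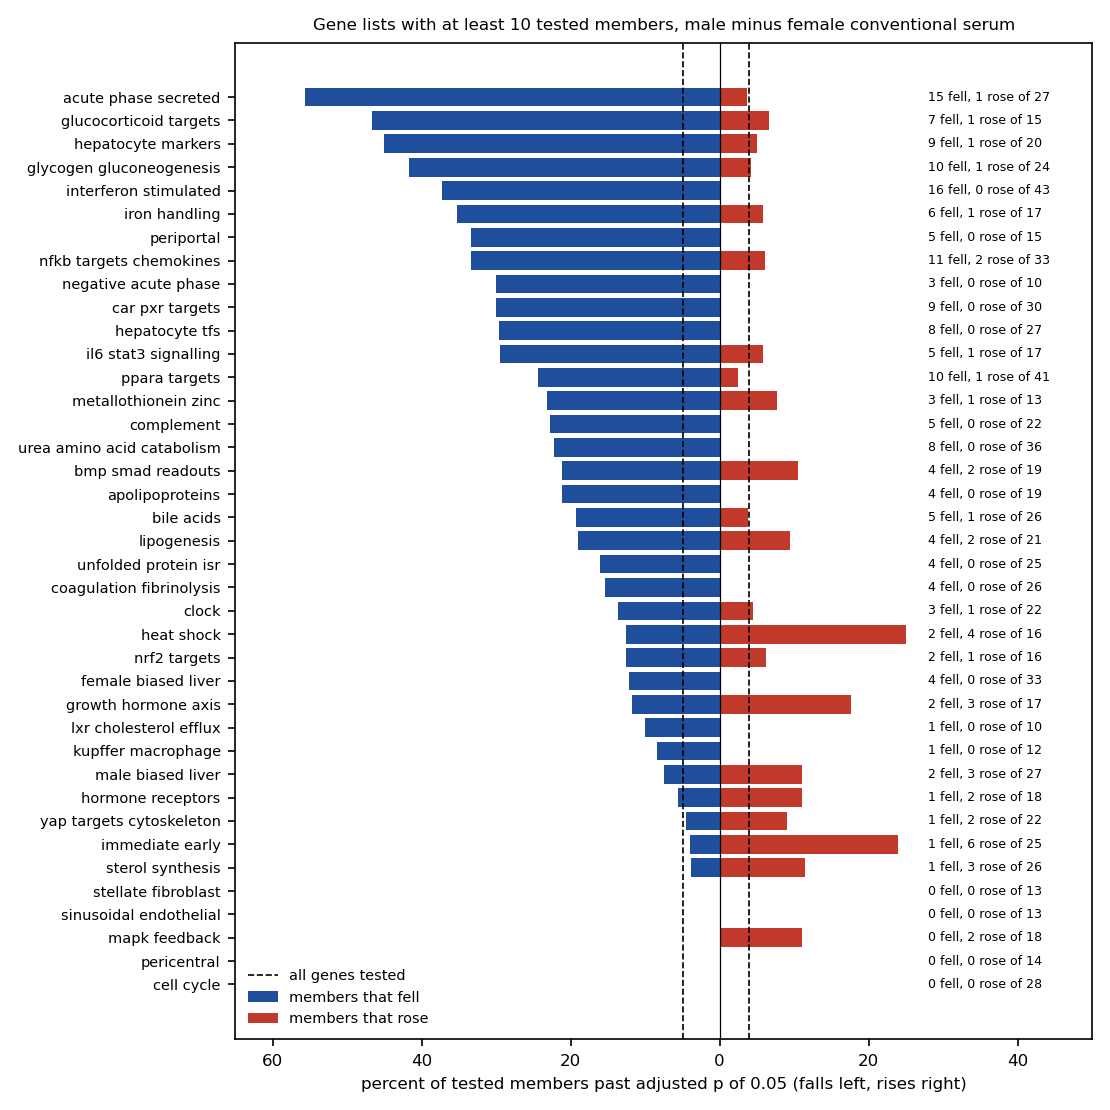
Percent of the tested members of each gene list with at least 10 tested members that fell (blue, to the left) or rose (red, to the right) in male against female conventional serum, with counts at the right. Dashed lines give the shares of all genes tested, 4.85% falls and 3.95% rises; secreted acute phase proteins stand at the top with 15 falls of 27.

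Most genes that mark the sex of the liver did not pass the test. The list of female-biased liver genes had 33 tested members, of which 4 fell and 0 rose, with a median of -0.28, and 4 fell also without f_ConvR replicate 2. Besides Cyp2b10 these were Cyp2a4, a steroid hydroxylase, with 9.78, 10.3 and 9.94 CPM in male and 18.6 and 21.7 CPM in female serum (-1.01 ± 0.157), Vldlr, a lipoprotein receptor (-0.54 ± 0.0723), and Nipal1, a magnesium transporter (-0.53 ± 0.0713). Among 27 male-biased liver genes 3 rose and 2 fell, and 0 fell without m_ConvR replicate 1 or either female serum library. Nox4, an NADPH oxidase, had 57.8, 67.2 and 80.2 against 33.4 and 21.4 CPM (1.32 ± 0.201, adjusted p = 0.000734), and Egfr, the EGF receptor, 384, 398 and 454 against 308 and 275 CPM (0.50 ± 0.0767). Cyp4a12a, a male-specific fatty acid hydroxylase, had 3, 1 and 0 counts in male serum and none in female serum. Mup20, the male pheromone darcin, had 28 counts over the 3 male and 39 over the 2 female serum libraries, and its close relatives may share reads. Cyp7b1, a hydroxylase of oxysterols that is higher in male liver, had 2.49, 2.67 and 3.09 against 4.81 and 3.71 CPM and did not pass (-0.63 ± 0.200, adjusted p = 0.0619), but was called lower with DESeq2 (adjusted p = 0.0328), library size only (0.0475) and no low-count filter (0.00916). Elovl3, a fatty acid elongase of male liver, did not pass (0.26 ± 0.555, adjusted p = 0.827), and its sign turned to -0.14 without f_ConvR replicate 2.

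In the growth hormone pathway 3 of 17 rose and 2 fell. Cish, a feedback inhibitor that STAT5 induces, had 58.1, 36.6 and 38.9 CPM in male and 29.1 and 25 CPM in female serum (0.72 ± 0.144, adjusted p = 0.00554), and its exons overlap predicted antisense models. Socs2, another STAT5 target, had 15.8, 16.4 and 16.4 against 24.5 and 17.9 CPM (-0.39 ± 0.115), a change in the other direction that kept its call only without f_ConvR replicate 3 among the fits that leave out 1 library. Bcl6, a repressor that opposes STAT5 in liver, changed by 0.43, and Ghr, the receptor of the hormone, by 0.37. Both lost their calls in several alternative fits, and 0 of the 17 rose without f_ConvR replicate 3 and 1 without m_ConvR replicate 3. Igf1, the main endocrine product of the pathway, had 467, 494 and 450.3 against 440.1 and 362 CPM and did not pass (0.23 ± 0.0809, adjusted p = 0.0943). It passed without f_ConvR replicate 2 (0.37, adjusted p = 0.0251). The oestrogen receptor Esr1 (-0.33, adjusted p = 0.33) did not pass.

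The largest rises were of genes at low to moderate level. Lmcd1, a LIM domain cofactor of transcription, had 70.3, 70.1 and 93.3 CPM in male and 25.1 and 24.8 CPM in female serum (1.64 ± 0.117, adjusted p = 1.36e-06), and 65.6 and 75.7 CPM in germ-free serum. Htr2b, a serotonin receptor whose exons overlap Psmd1, had 10.9, 8.54 and 9.69 against 2.93 and 2.26 CPM (1.90 ± 0.195) and 10 and 10.6 CPM in germ-free serum. Npy, neuropeptide Y, had 25.8, 18 and 27.1 against 6.18 and 7.86 CPM (1.76 ± 0.235) and 30.5 and 37.8 CPM in germ-free serum. In these 3 genes conventional female serum gave the lowest libraries of the 7. The same order held for Plekho1, with 5.62, 4.5 and 7.39, 1.94 and 1.76 and 6.51 and 7.00 CPM, and for Slc30a3, a zinc transporter, with 2.44, 1.7 and 2.1, 0.537 and 0.514 and 2.88 and 2.2 CPM. Tmprss11f, a membrane protease, had 10.2, 11.4 and 15.6 against 3.99 and 2.88 CPM (1.85 ± 0.209), and Tmeff1, a membrane protein, 2.41, 1.64 and 2.33 against 0.867 and 0.402 CPM (1.73 ± 0.363), with its call lost without f_ConvR replicate 3 (adjusted p = 0.0822). Mex3a, an RNA-binding protein, rose by 2.58 and Irx5, a homeobox factor, by 1.91. Irx5 lost its call without f_ConvR replicate 2 (1.38, adjusted p = 0.0654).

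A smaller set was higher in male serum than in both female sera. Klhl30, a kelch family gene (chromosome 1, 91351016 to 91362416, plus strand), had 4.74, 4.98 and 4.98 CPM in male, 2.21 and 1.56 CPM in conventional female and 2.09 and 2.15 CPM in germ-free serum. The log2 change was 1.37 ± 0.19 against conventional and 1.21 ± 0.191 against germ-free serum (adjusted p = 0.000343 and 0.0131). Arc, an immediate early gene best known from neurons, had 7.69, 10.3 and 6.96, 2.95 and 0.893 and 1.99 and 2.34 CPM (2.10 ± 0.351 and 1.94 ± 0.353, adjusted p = 0.00155 and 0.0301). Arc was the more variable in female serum, and its rise was 3.21 without f_ConvR replicate 2 and 1.49 without f_ConvR replicate 3. Trbc1, which encodes a constant region of the T cell receptor, had 2.14, 3.06 and 2.56, 0.392 and 0.313 and 0.889 and 0.975 CPM (2.86 ± 0.339 and 1.47 ± 0.302, adjusted p = 8.95e-05 and 0.0433). Of the calls against germ-free serum in these 3 genes, all were lost without either germ-free library. Those of Arc and Trbc1 were also lost without m_ConvR replicate 2 and in a fit of female hepatocytes only. Trbc1 also lost this call without m_ConvR replicate 3 and with the replicate number as a block.

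Trbc2, the neighbouring segment, rose with Trbc1 (2.75), and the pair may share reads. The other T cell markers did not rise with them. Cd3g had 1 count in each of the 5 libraries, Cd3d and Trac at most 3, and Cd3e had 0.25 to 0.61 CPM in male against 0.87 and 0.49 CPM in female serum. F13a1, the A subunit of coagulation factor XIII, known from macrophages and platelets, had 3.62, 6.78 and 5.84 against 1.49 and 0.491 CPM (2.43 ± 0.36, adjusted p = 0.000549) and 1.63 and 2.29 CPM in germ-free serum. Its log2 change was 3.45 without f_ConvR replicate 2 and 1.86 without f_ConvR replicate 3.

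**Figure D4:**
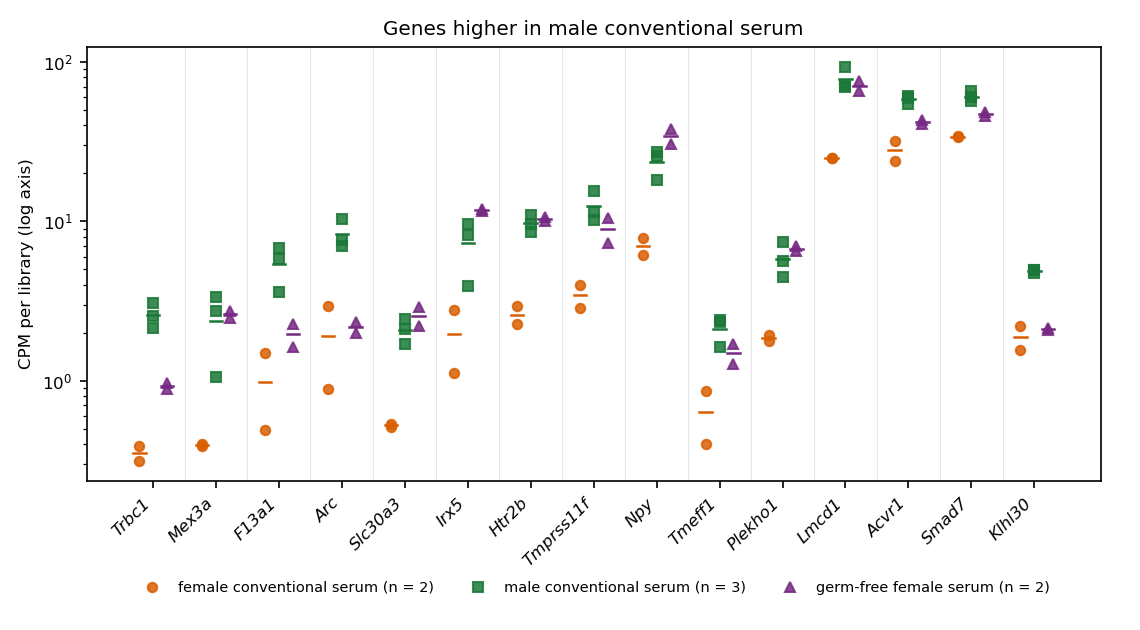
CPM per library (log axis) of 15 genes that rose, in female conventional serum (circles, n = 2), male conventional serum (squares, n = 3) and germ-free female serum (triangles, n = 2); short lines are group means. In Htr2b, Npy, Lmcd1, Plekho1 and Slc30a3 the germ-free points lie near those of male serum, whereas in Klhl30 and Arc they lie near those of female conventional serum.

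Growth-related genes moved in both directions. Of 25 immediate early genes 6 rose and 1 fell (2 rose without f_ConvR replicate 2). Junb, an AP-1 subunit, had 457, 446 and 436 CPM in male and 283 and 301 CPM in female serum (0.61 ± 0.0786), and Btg2, an antiproliferative gene, 229, 216 and 190.4 against 314 and 352 CPM (-0.65 ± 0.0926). Ctgf, a matrix protein and target of the YAP coactivator, had 708, 738 and 749.6 against 469 and 385 CPM (0.78 ± 0.0838, adjusted p = 4.1e-05). Ankrd1, another YAP target, went the other way, with 10.7, 8.34 and 8.96 against 15.5 and 15.6 CPM (-0.74 ± 0.0992, adjusted p = 0.000263), and stood at 15.3 and 16.3 CPM in germ-free serum. Of 28 cell cycle genes 0 were called by edgeR (median 0.21). Of 16 heat shock genes 4 rose and 2 fell, led by Hspa1a (6.86, 7.31 and 4.91 against 3.66 and 1.94 CPM, 1.17 ± 0.251) and its near copy Hspa1b, and without f_ConvR replicate 3 only 1 rose.

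Transcription factors of hepatocyte identity fell in 8 of 27 members, with 0 rises (2 falls without f_ConvR replicate 2). Foxa2, a pioneer factor of liver genes, had 34.8, 36.1 and 32.7 CPM in male and 50.9 and 56.8 CPM in female serum (-0.64 ± 0.0898, adjusted p = 0.000372). Of the 20 hepatocyte markers 9 fell and 1 rose, and 5 fell without f_ConvR replicate 2 or without m_ConvR replicate 1. In the circadian clock 3 of 22 fell and 1 rose. Per2, a repressor of the clock, had 5.6, 7.34 and 5.03 against 12.6 and 11.3 CPM (-0.996 ± 0.147), with 5.94 and 4.63 CPM in germ-free serum, and Tef, an output factor, fell by 0.47 on the log2 scale. Of 25 genes of the unfolded protein and integrated stress responses 4 fell, among them Herpud1 (-0.70) and Ddit3 (-0.56), and 1 fell without f_ConvR replicate 2.

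Male serum was set directly against germ-free female serum in the same fit. This tests whether their differences from conventional female serum differ. In all 78 of 17405 genes passed (0.448%), 46 higher in male serum (0.264%) and 32 lower (0.184%), with the same number of libraries on each side as in the main comparison. Of the 1532 genes called between the conventional sera 48 were among the 78, 45 in the same direction and 3 in the opposite one. The germ-free mean lay nearer to the male than to the conventional female mean in 520 of the 687 rises and 708 of the 845 falls. Both comparisons share the male serum libraries, and that share over all genes tested was not computed. Conventional female serum is represented by 2 libraries, and a property of those libraries cannot be told apart from one of the serum. Without germ-free replicate 3 the calls numbered 2, without germ-free replicate 2 they numbered 6, without m_ConvR replicate 1 they numbered 160 and without m_ConvR replicate 2 they numbered 16. Cxcl2 kept its call in all of these fits.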

How the data were processed

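RNA of cultured hepatocytes was sequenced after depletion of ribosomal RNA, with a stranded library kit and paired reads, per the labels' protocols. STAR 2.4.0i and the build mm10 are named in the submitters' processing notes. Neither the counting program nor its strand setting nor the annotation is stated in the sources used here. The authors deposited raw counts of exonic reads per gene, with no normalization, for 38087 genes. Of the columns, 13 were used and 2 that share 1 name were left out.

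The counts were fitted with edgeR 4.0.16 (R 4.3.3) in a single quasi-likelihood model of all 13 libraries in 5 groups (8 residual degrees of freedom), with TMM scaling and filterByExpr at a minimum count of 10, which left 17405 genes. Tests were two-sided with Benjamini-Hochberg adjustment over all genes tested and a threshold of 0.05. All groups shared 1 estimate of the spread (common biological coefficient of variation 9.02%), since female conventional serum had 2 libraries. CPM values are TMM-scaled, except those of Xist, Malat1 and satellite-like models, which are unscaled. Errors of log2 changes are the size of the change divided by the square root of its F statistic. Library totals of 34886134 to 47798248 counts set the precision of the 5 libraries, and genes with few counts have wide errors.

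Genes with values in the text were the 12 largest rises and 12 largest falls among called genes whose groups did not overlap and whose mean count reached 50, without predicted models, Xist and Y-linked genes. Up to 4 called members of each list with at least 3 called members, 33 genes of interest and up to 6 genes also called against germ-free serum were added. Any other gene named beside a count was picked with its value in view. The comparison, the 45 lists, the named genes and the rule were chosen with earlier results of these data known. The 938 list entries were matched by symbol (925) or identifier (13). Coordinates are from GENCODE M21, and promoters are from RefSeq (GRCm38.p6), where Hp and Id1 were not matched.

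Alternatives were RLE size factors, library size only, DESeq2 1.42.0, no filter on low counts, fits of fewer groups, a replicate block and fits without single libraries. Values of some list members are not reported here.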

Additional observations from a re-analysis of the deposited data

How the results depend on the processing

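The number of genes called between male and female conventional serum, 1532, stayed within 1.5 times of that value with RLE size factors (1513), library size only (1584), DESeq2 (1935), no low-count filter (2064) and female hepatocytes only (1040). In a fit of only the groups compared it was 468 (214 rises, 254 falls), and all 468 were among the 1532. Without both libraries rich in Xist, f_ConvR replicate 2 (488 CPM) and growth hormone replicate 1 (679 CPM), it was 825 (430 and 395). Malat1 did not set f_ConvR replicate 2 apart, at 11117 CPM. It was at 11342 CPM in m_ConvR replicate 3 and 11500 CPM in germ-free replicate 2, which were kept. Like the fit without f_ConvR replicate 2 alone, this fit left 1 library of f_ConvR serum. It is therefore not a separate check of nuclear RNA. Leaving out 1 library gave 663 to 1652 calls, 335 to 794 rises and 304 to 858 falls. What made these counts move was not tested. Against germ-free serum, 78 calls (46 higher, 32 lower) became 302 with DESeq2 (187 and 115), 622 without the filter (379 and 243), 17 with female hepatocytes only (8 and 9) and 286 without the libraries rich in Xist (176 and 110). Leaving out 1 library gave 2 to 160 calls, 0 to 98 higher and 2 to 62 lower. The cause was not tested.

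Deviations from the group mean gave r = -0.00513 between same-numbered libraries of the 2 sera for number 2 and -0.0159 for number 3, across genes. The 2 libraries of f_ConvR serum deviate by equal and opposite amounts. These values therefore cannot decide whether the numbers pair anything. With the replicate number as a block 1189 genes were called between the conventional sera, and 31 against germ-free serum (17 and 14).

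Of 135 named genes called between the conventional sera, 71 kept their call in every alternative, 13 lost it in 1 and 51 in more than 1, and 0 changed sign. Elovl3, never called, turned from 0.26 to -0.14 without both libraries rich in Xist, and ranged from -0.14 to 0.76 without single libraries. Library size only made 61.7% of calls falls, against 55.2% with TMM, and the share was 45.9% without f_ConvR replicate 2 and 63% without f_ConvR replicate 3. With 2 libraries of female conventional serum, small changes and genes of low count are the least certain.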

Other observations

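Several gene groups not described above held calls in male against female conventional serum. Among all genes tested 4.85% fell and 3.95% rose. Of 19 apolipoproteins 4 fell and 0 rose, among them Apoa5, a regulator of plasma triglyceride (32.7, 34.6 and 25.8 CPM in male and 50.6 and 52.3 CPM in female serum, -0.73 ± 0.125), and 1 fell without f_ConvR replicate 2. Of 16 genes listed for the oxidative stress factor NRF2, its own gene among them, 2 fell and 1 rose. The falls were Nfe2l2, the gene of NRF2, with 144, 147 and 148 against 191 and 191 CPM (-0.39 ± 0.058, adjusted p = 0.000617), and Nqo1, a quinone reductase (-0.39). Nqo1 lost its call without m_ConvR replicate 1 or either female serum library, while Nfe2l2 kept its call. Among 13 metallothionein and zinc genes 3 fell and 1 rose. Slc30a1, a zinc exporter, fell by 0.27 on the log2 scale, beside Mt1 and Mt2, and lost its call without f_ConvR replicate 2 (adjusted p = 0.105), where Mt1 and Mt2 kept theirs. Of 10 genes of cholesterol efflux 1 fell (10%), which is too few calls to describe that group. Of 18 feedback genes of MAP kinases 2 rose, with 1 rise without f_ConvR replicate 2, m_ConvR replicate 1 or m_ConvR replicate 3 and 4 without m_ConvR replicate 2.

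Among the genes with the largest falls, 4 belong to none of the groups above. Gjb2, the gap junction protein connexin 26, had 8.73, 11.8 and 8.85 CPM in male and 36.4 and 24.6 CPM in female serum (-1.64 ± 0.194, adjusted p = 8.83e-05). Fam43a had 2.3, 2.45 and 1.95 against 9.09 and 6.41 CPM (-1.80 ± 0.188) and Acnat2, an acyltransferase, 1.87, 2.81 and 2.96 against 8.94 and 7.99 CPM (-1.73 ± 0.211). Neurl3, a ubiquitin ligase gene, had 2.09, 0.945 and 1.29 against 5.53 and 3.28 CPM (-1.61 ± 0.258). A lack of overlap between the groups was a condition for choosing these 4 genes. Germ-free serum held Gjb2 at 12.1 and 10.9 CPM and Fam43a at 2.93 and 2.59 CPM.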
